A study of Homo sapiens with 2 samples.

Results

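The genes described here are 10 members of the bone morphogenetic protein (BMP) pathway: the ligands BMP4, BMP2 and BMP7, the receptors BMPR1A and BMPR2, the pseudoreceptor BAMBI, the inhibitory SMADs SMAD6 and SMAD7, the receptor-activated SMAD9 and the secreted antagonist NOG. They were listed by symbol and not by a cut on measured values, but earlier results of these data were known at the time. All 10 were found among the 33538 genes counted. BMP ligands bring type I receptors such as BMPR1A and type II receptors such as BMPR2 together at the cell surface, and the activated receptors phosphorylate SMAD1, SMAD5 and SMAD9, which enter the nucleus with SMAD4. Several genes switched on by this signal act back on it: BAMBI lacks a kinase domain and occupies receptor complexes, SMAD6 and SMAD7 block the receptors or the receptor SMADs, and NOG binds the ligand outside the cell. In human embryonic stem cells (hESCs), BMP4 drives exit from pluripotency toward mesodermal and extraembryonic fates.

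Both libraries came from H1, an established hESC line grown in mTeSR1, a pluripotency medium, and given recombinant BMP4 at 50 ng/ml for 48 h. The library labelled WT held unmodified H1 cells, and the library labelled GATA3 KO held 1 clone in which Cas9 had been aimed at the transcription factor GATA3. That clone derives from an H1 line with an inducible Cas9 cassette at AAVS1, so clone, cassette and genotype cannot be told apart. The exposure is entered as 48 h in the title and the recorded duration of the WT library, while its protocol text says 1 h; 48 h was taken. As BMP4 was added as protein, BMP4 transcripts here are those the cells made themselves.

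GATA3, the targeted gene, was checked first. It stood at 12.7 counts per 1000000 (CPM), where each count is a unique molecular identifier (UMI) standing for 1 captured transcript, in the WT library and at 10.9 CPM in the GATA3 KO library, a log2 ratio (GATA3 KO over WT, each CPM plus 1) of -0.19 in the cells kept by the filters below. Over all deposited cells the ratio of GATA3 was -0.73, and in cells above 7500 detected genes it was -1.11, with 25.65 against 11.3 CPM. These counts read only 3′ ends, which an edited gene can still make, so they do not check the label. After the filters of the study (at most 7500 detected genes and at most 25% mitochondrial counts), 2519 of 3802 WT cells and 4450 of 6221 GATA3 KO cells were kept, with medians of 44415 and 43131.5 UMIs. Only 8 cell barcodes occurred in both libraries, 5 of them among kept cells. Pluripotency transcripts were present in both, in no common direction. POU5F1 stood at 918 and 1480 CPM, SOX2 at 149.5 and 388.6 CPM and LIN28A at 393 and 550.1 CPM. NANOG stood at 75.63 and 55.65 CPM and DPPA4 at 270.4 and 246.8 CPM. Of the neural markers, IRX2 stood at 35.98 and 87.57 CPM and SOX21 at 1.235 and 2.151 CPM. PAX6 stood at 0.0803 and 0.154 CPM, SIX3 at 0.864 and 1.57 CPM and LHX5 at 0.0502 and 0.8215 CPM. With 1 library per group there was no replicate, so no test was made, and every interval below is a 95% interval that covers counting error only.

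Promoters of 3 members are shown: BMP4 as the ligand with the largest ratio between the libraries, BAMBI as the highest member in both libraries, and SMAD6 for a rare SMAD-box palindrome. Each is the 250 bases before a RefSeq transcription start on GRCh38.p14, 5′ to 3′ on the gene's strand, with matches to the GC-rich SMAD letters GGCGCC or the palindromic SMAD box GTCTAGAC in capitals. Both strands read alike for these letters. RefSeq entries were matched for 7 members, and not for BMP2, BMP7 and NOG.
BMP4 (chr14:53955051-53955300, minus strand): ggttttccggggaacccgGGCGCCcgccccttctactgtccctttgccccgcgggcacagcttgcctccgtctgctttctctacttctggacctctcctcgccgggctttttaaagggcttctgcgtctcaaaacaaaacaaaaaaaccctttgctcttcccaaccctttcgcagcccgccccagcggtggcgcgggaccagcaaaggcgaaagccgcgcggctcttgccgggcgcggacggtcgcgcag
BAMBI (chr10:28677271-28677520, plus strand): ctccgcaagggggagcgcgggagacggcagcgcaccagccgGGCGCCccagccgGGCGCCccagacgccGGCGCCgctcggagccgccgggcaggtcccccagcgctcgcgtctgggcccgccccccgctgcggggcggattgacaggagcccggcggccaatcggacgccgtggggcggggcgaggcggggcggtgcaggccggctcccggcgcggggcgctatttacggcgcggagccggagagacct
SMAD6 (chr15:66701986-66702235, plus strand): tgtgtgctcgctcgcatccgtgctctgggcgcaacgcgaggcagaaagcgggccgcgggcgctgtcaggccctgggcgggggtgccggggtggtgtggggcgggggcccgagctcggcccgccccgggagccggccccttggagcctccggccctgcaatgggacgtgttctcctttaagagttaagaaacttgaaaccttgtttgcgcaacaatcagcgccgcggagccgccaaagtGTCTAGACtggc
The BAMBI window holds GGCGCC at 3 places, which begin 209, 196 and 181 bases before the start. BMP4 has it once, 232 bases before the first of its 3 listed starts, and BMPR2 once, 147 bases before its start. These letters occur in 16.4% of the 35116 promoters of this length, so single matches are common, and GC content was 81.2% in the BAMBI window against a median of 58% over all promoters. GTCTAGAC begins 12 bases before the SMAD6 start and occurs in 0.182% of promoters. The SMAD box CAGAC, searched on both strands and not contained in either of the other motifs, was found in windows of BMP4, BMPR2, BAMBI and SMAD7 and in 38% of promoters. The GATA motif (GATAA or GATAG after A or T, on either strand) occurred in 1 member, BMPR1A, and in 22.3% of promoters. Matches describe these windows and were not tested as binding sites.

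The members spanned a wide range of levels. In the WT library, BAMBI was highest at 113 CPM (110.9 to 115.1), followed by BMPR1A at 63.2 CPM, BMP4 at 27.8 CPM and BMPR2 at 16.8 CPM. SMAD7, BMP7 and BMP2 lay at 8.79, 7.88 and 7.26 CPM, where neighbouring intervals overlapped, then came SMAD6 at 5.66 CPM, and SMAD9 and NOG at 1.72 and 1.40 CPM could not be ordered. In the GATA3 KO library, BAMBI was again highest at 89.4 CPM, but BMP4 at 64.8 CPM stood above BMPR1A at 40.7 CPM. BMPR2 at 11.1 CPM and BMP7 at 9.19 CPM followed. SMAD7, SMAD6, BMP2 and SMAD9, at 4.01, 3.77, 3.21 and 3.16 CPM, had overlapping neighbouring intervals, and NOG was lowest at 2.21 CPM. These are counts of 3′ ends and were not divided by transcript length, and the order of genes is an order on that scale.

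**Figure D1:**
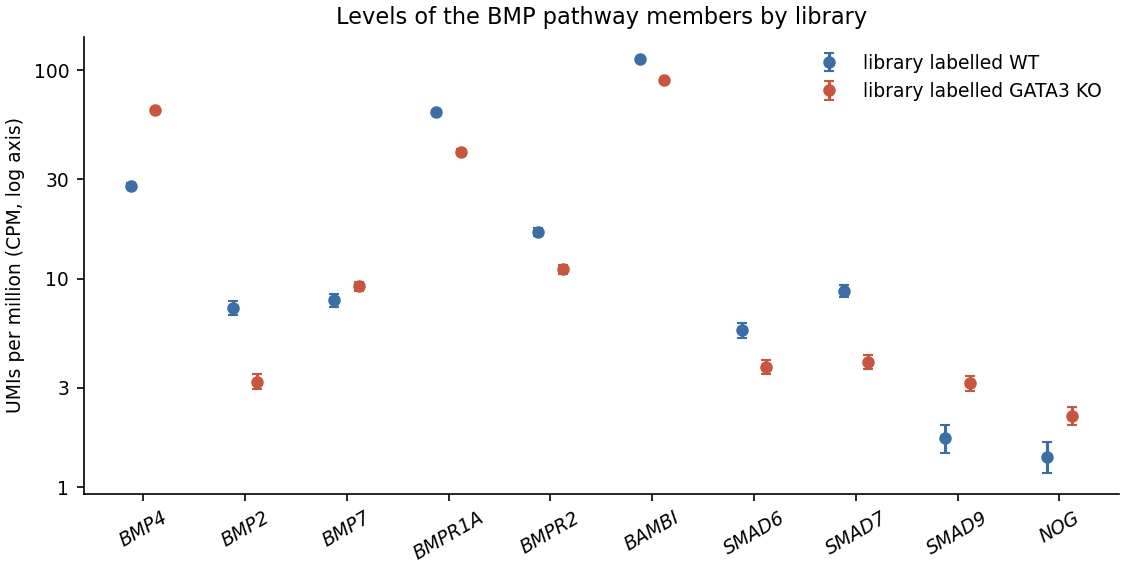
Levels of the 10 members in the 2 libraries, in CPM on a log axis; points are summed counts of the kept cells and bars are exact Poisson 95% intervals. BMP4 stood above BMPR1A in the GATA3 KO library (64.8 against 40.7 CPM), while BAMBI was the highest member in both.

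Between the libraries, 4 members were higher and 6 were lower in GATA3 KO, with a median log2 ratio of -0.41 for the 10. Among all 13523 genes that reached 1 CPM in either library, the median was 0.070, with 7533 higher and 5990 lower. A difference of 2-fold or more was reached by 1 member in the higher direction, BMP4, where 2.06% of all genes reached it, and by 0 members in the lower direction, where 2.27% of all genes did. BMP2 and SMAD7 fell just short of it on this scale, which adds 1 CPM to each level. With 0.1 CPM added instead, their log2 ratios were -1.15 and -1.11, past 2-fold, as were 3.99% of all genes in the lower direction. No unadjusted p exists for either count of members since no test was made.

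BMP4 (ENSG00000125378, chr14:53949736-53958761, minus strand, GRCh38), the ligand that was also added to the medium, was counted 2773 times in WT and 11355 times in GATA3 KO. Its level was 27.8 CPM (26.8 to 28.9) in WT against 64.8 CPM (63.6 to 66.0), with a log2 ratio of 1.19 (1.13 to 1.25). The size of this difference depended on the limit of 7500 detected genes. In the 1012 WT cells above that limit BMP4 stood at 52.55 CPM, and in the 1265 such GATA3 KO cells at 64.5 CPM, a log2 ratio of 0.29. Those cells held 64.7% of all BMP4 UMIs deposited for WT and 36.7% of those for GATA3 KO. Over all deposited cells the log2 ratio of BMP4 was 0.68, and as the mean of per-cell CPM in kept cells it was 0.99, both short of 2-fold. HAND1, a marker of extraembryonic and lateral mesoderm cells, moved with the same limit, from a log2 ratio of 0.13 in kept cells to -1.26 in the cells above it. The part of these excluded cells in the BMP4 difference was not tested further.

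More of the BMP4 UMIs in GATA3 KO lay in cells that carried several. Each cell was thinned at random to 10000 UMIs so that shares could be compared at equal depth, which left 2173 WT and 4038 GATA3 KO cells. A BMP4 UMI was then found in 18.2% of WT cells (16.6 to 19.9) and 22.6% of GATA3 KO cells (21.3 to 23.9), a difference of 4.34 percentage points (2.22 to 6.41), and in 39.5% and 39.9% without thinning. This difference varied with the random draw, and another seed gave 6.73 points. Cells with exactly 1 BMP4 UMI were fewer in GATA3 KO, 9.93% against 13.7%. Cells with 2 to 4 were more frequent, 8.52% against 3.96%, and cells with 5 or more made up 4.11% (166 cells) against 0.598% (13 cells). Among positive cells the mean was 2.74 UMIs in GATA3 KO and 1.54 in WT. In both libraries the 5% of cells with the most BMP4 held about the same share of its UMIs, 52.8% in WT and 50.4% in GATA3 KO.

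BMP2 (ENSG00000125845, chr20:6767686-6780246, plus strand), a close relative of BMP4, went the other way. It stood at 7.26 CPM (6.74 to 7.81) in WT and 3.21 CPM (2.95 to 3.49) in GATA3 KO, a log2 ratio of -0.97 (-1.10 to -0.84). At equal depth, 5.02% of WT cells and 3.42% of GATA3 KO cells had a BMP2 UMI, a difference of -1.60 points (-2.74 to -0.53), and 12.1% and 10.1% without thinning. Unlike the ratio of BMP4, that of BMP2 hardly depended on the cell filter: it was -0.89 over all deposited cells and -0.79 in cells above 7500 genes. Expressed neighbours within 1 Mb (3 genes of at least 20 CPM) had a median ratio of 0.0067.

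BMP7 (ENSG00000101144, chr20:57168753-57266641, minus strand), the other ligand, differed little. Its level was 7.88 CPM (7.34 to 8.45) in WT and 9.19 CPM (8.75 to 9.65) in GATA3 KO, a log2 ratio of 0.20 that was 0.047 over all deposited cells. The share of cells with a BMP7 UMI was 7.27% in WT and 8.05% in GATA3 KO, with a difference of 0.78 points whose interval (-0.65 to 2.15) included 0. Its 7 expressed neighbours within 1 Mb on chromosome 20 had a median ratio of 0.24, about that of BMP7 itself. For BMP4 the 5 such neighbours ranged from -0.86 to 0.17 with a median of -0.17, well below BMP4.

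Both receptors were lower in GATA3 KO. BMPR1A (ENSG00000107779, chr10:86756596-86932825, plus strand), the type I receptor that binds BMP4 and BMP2, stood at 63.2 CPM (61.6 to 64.7) in WT and 40.7 CPM (39.8 to 41.7) in GATA3 KO, a log2 ratio of -0.62. A BMPR1A UMI was found in 44% and 32.5% of cells at equal depth (79.5% and 70.8% without thinning), a difference of -11.5 points (-14.1 to -8.96) at equal depth. BMPR2 (ENSG00000204217, chr2:202376327-202567751, plus strand), the type II receptor whose kinase activates the type I receptor, was counted at 16.8 CPM (16.0 to 17.6) in WT and 11.1 CPM (10.6 to 11.6) in GATA3 KO, and its log2 ratio was -0.56. Its share of positive cells was 14.7% in WT and 9.61% in GATA3 KO at equal depth. Over all deposited cells both ratios were further from 0, at -0.75 for BMPR1A and -0.69 for BMPR2.

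BAMBI (ENSG00000095739, chr10:28677510-28682932, plus strand) gave the smallest ratio among the lower members. It stood at 113 CPM in WT and 89.4 CPM (88.0 to 90.8) in GATA3 KO, a log2 ratio of -0.33 (-0.37 to -0.30), and at -0.61 over all deposited cells. Fewer GATA3 KO cells carried a BAMBI UMI, 37.1% against 46.8%, a difference of -9.68 points (-12.3 to -7.08), and 60.5% against 75.9% without thinning. Cells with 5 or more BAMBI UMIs were about as frequent in both libraries, 5.52% (4.60 to 6.57) in WT and 4.75% (4.12 to 5.46) in GATA3 KO. Those with 10 or more were 1.29% and 0.347%.

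The inhibitory SMADs were low and lower still in GATA3 KO. SMAD7 (ENSG00000101665, chr18:48919853-48950965, minus strand), which brings ubiquitin ligases to the receptors, stood at 8.79 CPM (8.21 to 9.39) in WT and 4.01 CPM (3.71 to 4.31) in GATA3 KO, a log2 ratio of -0.97 (-1.09 to -0.84). The ratio of SMAD7 passed 2-fold over all deposited cells (-1.17) and in the cells above 7500 genes (-1.37). A SMAD7 UMI was found in 7.92% and 3.89% of cells at equal depth (26.2% and 12.9% without thinning), a difference of -4.03 points (-5.37 to -2.75). SMAD6 (ENSG00000137834, chr15:66702236-66782849, plus strand), which acts mainly on the BMP branch, was at 5.66 CPM (5.21 to 6.15) in WT and 3.77 CPM (3.48 to 4.06) in GATA3 KO, and its log2 ratio was -0.48. SMAD6 was found in 5.38% of WT and 3.42% of GATA3 KO cells.

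SMAD9 and NOG were the rarest members. SMAD9 (ENSG00000120693, chr13:36844831-36920887, minus strand), a receptor SMAD beside SMAD1 and SMAD5, stood at 1.72 CPM (171 UMIs) in WT and 3.16 CPM (553 UMIs) in GATA3 KO, a log2 ratio of 0.61 (0.44 to 0.78), with 1.56% and 3.10% of cells positive. The difference for SMAD9 was not present in cells above 7500 genes (3.15 and 2.95 CPM). NOG (ENSG00000183691, chr17:56593699-56595611, plus strand) stood at 1.40 CPM (139 UMIs) and 2.21 CPM (387 UMIs), a log2 ratio of 0.42 (0.24 to 0.59), with 1.01% and 1.49% of cells positive and a difference whose interval (-0.15 to 1.04 points) included 0. NOG also changed sign with the filter, to -0.015 over all deposited cells and -0.37 in cells above 7500 genes.

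**Figure D2:**
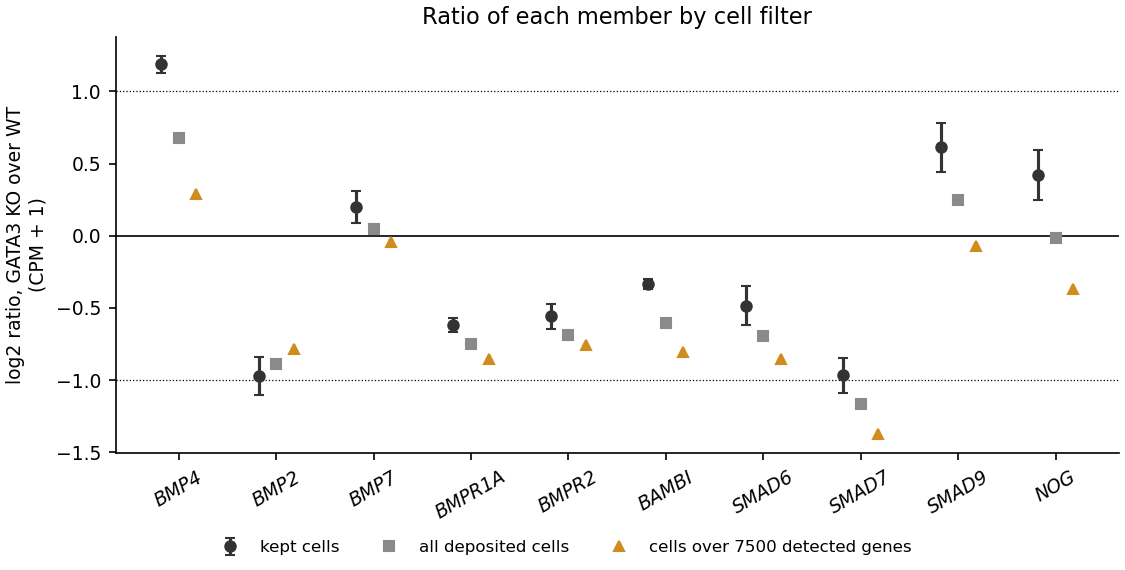
Log2 ratio of GATA3 KO over WT (CPM plus 1) for each member in kept cells (circles, with 95% counting intervals), in all deposited cells (squares) and in cells above 7500 detected genes (triangles); dotted lines mark 2-fold. BMP4 moved from 1.19 to 0.68 and 0.29, and every member except BMP2 moved downward from circle to triangle.

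To see which cells carried the members, each thinned cell was put in 1 of 6 classes by UMIs of lineage markers, none of which is a member. Classes were drawn in this order: the streak markers MIXL1, EOMES or TBXT together with HAND1, ISL1 or TFAP2A; streak markers alone; HAND1 or ISL1; TFAP2A; SOX2 alone; and no marker. They held 163, 837, 82, 78, 805 and 208 cells in WT and 79, 164, 210, 476, 2948 and 161 cells in GATA3 KO. MIXL1 itself stood at 135.8 CPM in WT and 4.0 CPM in GATA3 KO and TFAP2A at 16.7 and 37.7 CPM, so a class need not hold like cells in both libraries, and class sizes are given only as numbers of cells. The HAND1/ISL1 class and the TFAP2A class thus leave out cells that also had a streak marker, and the TFAP2A class leaves out cells with HAND1 or ISL1. No class is known to lack these transcripts, so the lowest class is shown beside each share in place of a background.

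Of the 6 classes, BMP4 was highest in the HAND1/ISL1 class of both libraries, at 261.5 CPM (243.9 to 280.1) in WT and 351.3 CPM (339.4 to 363.5) in GATA3 KO. It was lowest in SOX2-alone cells, at 11.3 and 15.6 CPM. The log2 ratio of the first to the second class was 4.42 in WT and 4.41 in GATA3 KO. A BMP4 UMI was found in 73.2% and 85.2% of the HAND1/ISL1 class, against 11.6% and 11.0% of SOX2-alone cells, with median depths of 39158.5 and 44961 UMIs in the former and 46896 and 44743 in the latter. The TFAP2A class carried 66.9 CPM in WT and 210.5 CPM in GATA3 KO, and supplied 8.41% of the BMP4 UMIs of WT but 38.7% of those of GATA3 KO. Taking every cell with a HAND1 or ISL1 UMI, streak markers or not, BMP4 stood at 185.5 CPM in 137 WT cells and 337.4 CPM in 224 GATA3 KO cells. Every cell with a TFAP2A UMI taken likewise, it stood at 87.8 CPM in 253 WT cells and 246.7 CPM in 719 GATA3 KO cells, which held 37.0% and 69.75% of the BMP4 UMIs. BMP4 was higher in GATA3 KO in 6 of 6 classes, with log2 ratios from 0.42 to 2.21. With both libraries set to the same class shares its ratio was 1.04, against 1.21 in the same cells without this step.

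BMP2 had another distribution. In WT it was highest where streak markers were present, at 15.7 CPM (13 to 18.8) with and 11.0 CPM (9.98 to 12.1) without HAND1, ISL1 or TFAP2A, and 3.02 CPM in SOX2-alone cells. In GATA3 KO the same 2 streak classes stood at 1.31 CPM (0.426 to 3.06) and 1.62 CPM (0.838 to 2.83), from 5 and 12 UMIs. Its log2 ratios there were -2.85 and -2.19, whereas in SOX2-alone cells the ratio was 0.11 with an interval (-0.12 to 0.35) that included 0. Streak-positive cells thus held 77.6% of the BMP2 UMIs of WT, where the 2 streak classes held 7.66% and 39.7% of all UMIs. SOX2-alone cells held 75.4% of the BMP2 UMIs of GATA3 KO, near their 72.7% of all UMIs there.

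Within the streak cells of WT, BMP2 was uneven. In a split made after the values were seen, 298 WT cells had a streak marker together with CER1, GSC or SOX17, genes of the anterior streak and endoderm. BMP2 stood at 32.4 CPM (29.5 to 35.5) in these and at 2.63 CPM (2.10 to 3.26) in the other 702 streak cells, close to the 2.88 CPM of cells with neither set. They were 13.7% of the cells and held 65.5% of the BMP2 UMIs. GATA3 KO had 17 cells of this kind, with 4 BMP2 UMIs in all. Among these streak cells of WT, BMP4 was distributed the opposite way, at 14.9 CPM (12.9 to 17.0) in the 298 and 24.8 CPM (23.1 to 26.6) in the 702. BAMBI did not differ between them beyond counting error, at 119.4 CPM (113.8 to 125.2) and 121.4 CPM (117.7 to 125.3). The 49 WT cells with CER1, GSC or SOX17 but no streak marker had more of both, at 42.4 CPM (33.9 to 52.3) for BMP4 and 228.1 CPM (207.8 to 249.8) for BAMBI.

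**Figure D3:**
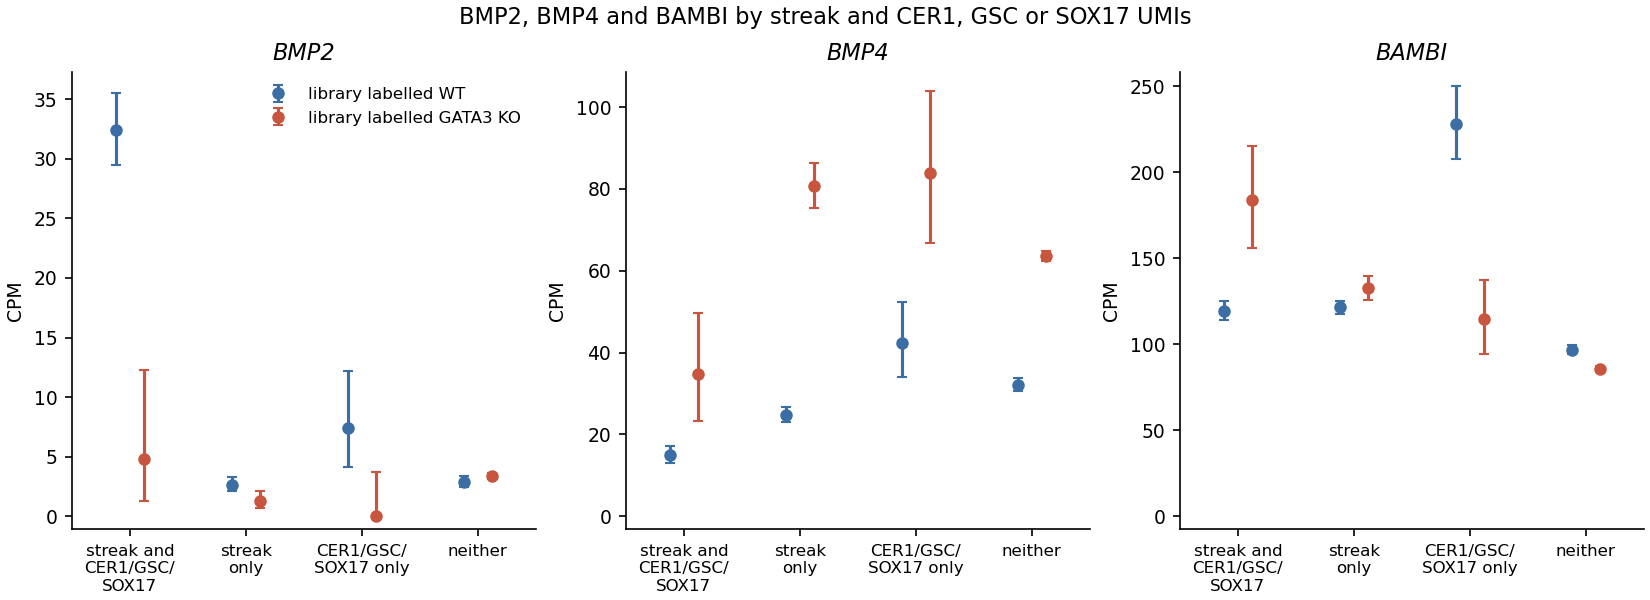
Levels in CPM of BMP2, BMP4 and BAMBI in thinned cells split by streak markers (MIXL1, EOMES or TBXT) and by CER1, GSC or SOX17; points are summed counts per library and bars exact Poisson 95% intervals. BMP2 in WT stood at 32.4 CPM in cells with both sets and between 2.63 and 7.39 CPM elsewhere.

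BMPR1A was the most even member. In WT it ranged from 56.7 CPM in SOX2-alone cells to 75.1 CPM in the HAND1/ISL1 class, and in GATA3 KO from 38 to 57.4 CPM. It was lower in GATA3 KO in 6 of 6 classes, by log2 ratios of -0.26 to -0.79, and its ratio at like class shares was -0.52. BMPR2 was lower in SOX2-alone cells, 12.6 CPM in WT and 8.42 CPM in GATA3 KO (log2 ratio -0.53), while in the HAND1/ISL1 class it stood at 27.5 and 25.6 CPM with an interval of the ratio (-0.45 to 0.26) that included 0. At like class shares the BMPR2 ratio was -0.33.

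BAMBI was highest and lowest in the same classes as BMP4. It stood at 693.8 CPM (664.9 to 723.6) in the HAND1/ISL1 class of WT and 413.9 CPM (401.0 to 427.1) in those of GATA3 KO, a log2 ratio of -0.74. In the TFAP2A class BAMBI stood at 215.2 and 225.4 CPM, with an interval of the ratio (-0.05 to 0.18) that included 0, and in SOX2-alone cells it stood at 41.6 and 37.0 CPM. A BAMBI UMI was found in 91.5% and 93.8% of the HAND1/ISL1 class and in 28.1% and 24.3% of SOX2-alone cells. Its ratio of -0.31 in these cells was -0.22 at like class shares.

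SMAD7 varied less between classes, from 5.86 CPM in SOX2-alone to 13.1 CPM in the HAND1/ISL1 class of WT. It was lower in GATA3 KO in 5 of 6 classes, with 2.79 CPM in SOX2-alone cells (log2 ratio -0.86; -1.06 to -0.65) and 7.05 CPM in the HAND1/ISL1 class. At like class shares the ratio of SMAD7 was -0.60, against -0.96 without this step. SMAD6 divided the classes: in SOX2-alone cells it stood at 2.93 CPM in WT and 1.71 CPM in GATA3 KO (-0.54; -0.78 to -0.29), and in the HAND1/ISL1 class at 15.4 and 18.5 CPM, where the interval of the ratio (-0.19 to 0.71) included 0.

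SMAD9 and NOG had their highest levels in the HAND1/ISL1 class. SMAD9 stood there at 13.1 CPM (9.41 to 17.8) in WT and 17.3 CPM (14.7 to 20.2) in GATA3 KO, against 1.16 and 1.35 CPM in SOX2-alone cells. NOG stood there at 15.0 CPM (11.0 to 20.0) and 13 CPM (10.8 to 15.6), against 0.304 and 0.467 CPM in SOX2-alone cells. These classes were 82 cells in WT and 210 in GATA3 KO, with 3.19% and 5.39% of all UMIs. They held 35.9% and 32.4% of the NOG UMIs, and the TFAP2A class 10.7% and 41.1%. Of the SMAD9 UMIs the HAND1/ISL1 class held 24.3% and 29.7%, and SOX2-alone cells 24.85% and 31.2%. The TFAP2A class held 7.69% and 28.8% of them, and streak markers alone 26.6% and 1.835%.

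**Figure D4:**
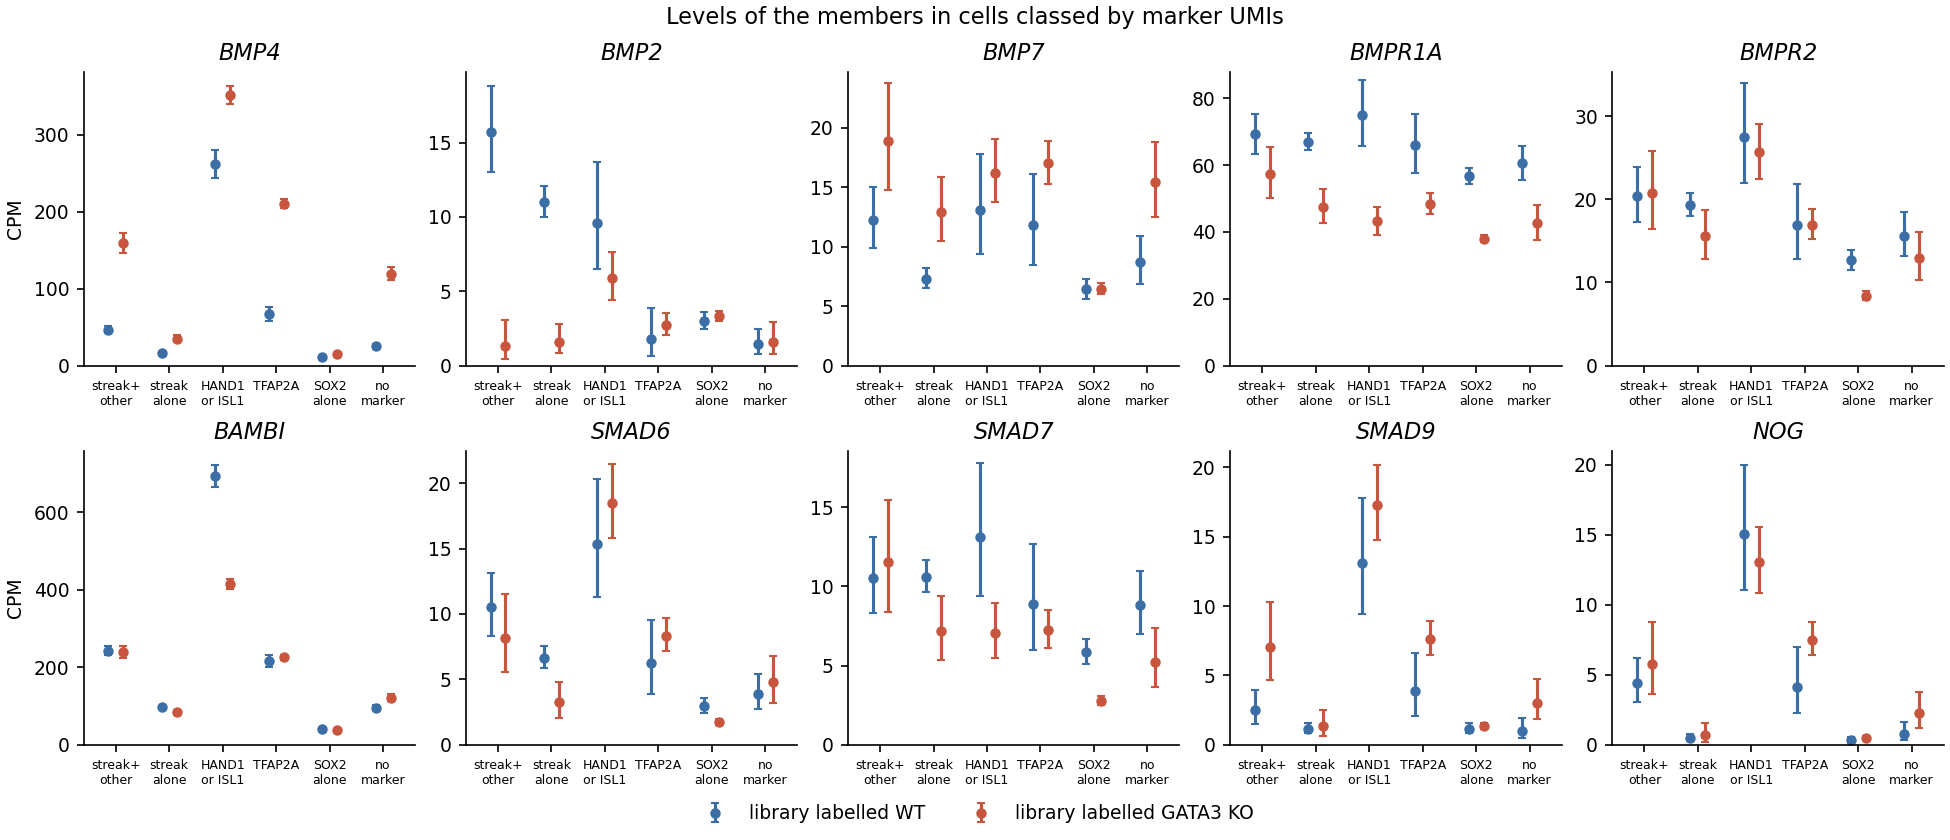
Level of each member in CPM in 6 classes of cells drawn by marker UMIs, for the library labelled WT and the library labelled GATA3 KO, with exact Poisson 95% intervals; "streak+ other" are cells with a streak marker and HAND1, ISL1 or TFAP2A, and each panel has its own axis from 0. BMP4, BMPR2, BAMBI, SMAD6, SMAD9 and NOG peaked in the HAND1/ISL1 class in both libraries. BMP2 was highest in the streak classes in WT and in the HAND1/ISL1 class in GATA3 KO.

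Cells with a GATA3 UMI more often had a UMI of BMP4, BMP7, BAMBI, SMAD6, SMAD7 and NOG, with intervals of the difference that excluded 0 in both libraries. This was not particular to the members. ID1, ID2, ID3, ID4, MSX2, GATA2, DLX5, TFAP2A and HAND1 did so too, and SOX2 and NANOG did the reverse. The share of all genes that did so was not counted. In WT, 213 of 2173 thinned cells had a GATA3 UMI, and 41.8% of these (35.1 to 48.7) had a BMP4 UMI against 15.7% of the rest. In GATA3 KO, where the counted 3′ end is still made, 316 of 4038 cells had one, and 81.7% of these (76.9 to 85.8) had a BMP4 UMI against 17.5% of the rest. BAMBI was found in 80.8% of GATA3-positive and 43.1% of GATA3-negative cells of WT, and in 90.8% and 32.6% of those of GATA3 KO. NOG was found in 6.57% against 0.408% in WT and in 8.86% against 0.860% in GATA3 KO. Median depths of GATA3-positive and GATA3-negative cells were alike, 45968 and 47223.5 UMIs in WT and 46337 and 44757 UMIs in GATA3 KO. SMAD6 was found in 10.8% against 4.80% in WT and 14.2% against 2.5% in GATA3 KO, and SMAD7 in 14.1% against 7.24% and 8.23% against 3.52%. BMP7 was found in 11.3% against 6.84% and 13.3% against 7.60%. For BMPR1A the interval excluded 0 in WT only (51.2% against 43.2%), for BMPR2 and SMAD9 in GATA3 KO only (20.6% against 8.68%, and 12.7% against 2.28%), and for BMP2 in neither library. Whether these differences differ between the libraries was not tested.

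BAMBI, NOG, BMP7 and SMAD9 were found more often in cells with 2 to 4 BMP4 UMIs than in cells with none, in both libraries. This was not particular to the members, as ID1, ID2, ID4, GATA3, TFAP2A and HAND1 did so too. TFAP2A was found in 8.50% and 44.2% of WT cells with none and with 2 to 4, and in 8.06% and 66.0% of such GATA3 KO cells. SOX2 did the reverse in both libraries and MIXL1 in WT. The share of all genes that did so was not counted. In WT, BAMBI was found in 42.0% of the 1777 cells with no thinned BMP4 UMI, in 61.6% of the 297 with 1, in 87.2% of the 86 with 2 to 4 and in all 13 with 5 or more. In GATA3 KO the shares were 27.0% of 3127 cells, 47.4% of 401, 89.5% of 344 and 95.2% of 166. Detection is near its ceiling in cells with 2 or more BMP4 UMIs, and there the BAMBI levels differed: 472.1 CPM (449.9 to 495.2) in WT and 308.9 CPM (300.3 to 317.7) in GATA3 KO at 2 to 4 UMIs, and 926.4 CPM (854.0 to 1003) and 422.2 CPM (407.6 to 437.2) at 5 or more. BAMBI was lower in GATA3 KO also in cells with no BMP4 UMI, at 80.3 CPM in WT and 42.9 CPM in GATA3 KO. NOG was found in 0.281% of WT cells with no BMP4 UMI and 6.98% of those with 2 to 4, and in 0.448% and 7.56% of such GATA3 KO cells. SMAD6 was found in 1.70% of GATA3 KO cells with none (1.27 to 2.21) and 11.3% of those with 2 to 4 (8.19 to 15.2), while in WT the shares were 5.01% (4.04 to 6.13) and 9.30% (4.10 to 17.5), whose intervals overlapped. BMPR1A was found in 42.9% of WT cells with none (40.6 to 45.2) and 59.3% of those with 2 to 4 (48.2 to 69.8), and in 32.0% (30.4 to 33.6) and 33.7% (28.7 to 39.0) of such GATA3 KO cells, where the intervals overlapped. BMP2 was found in 5.12% and 4.65% of such WT cells and 3.49% and 3.20% of such GATA3 KO cells, with overlapping intervals in both. SOX2, a pluripotency factor and one of the class markers, was found in 58.0% and 19.8% of such WT cells and in 94.7% and 45.9% of such GATA3 KO cells.

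**Figure D5:**
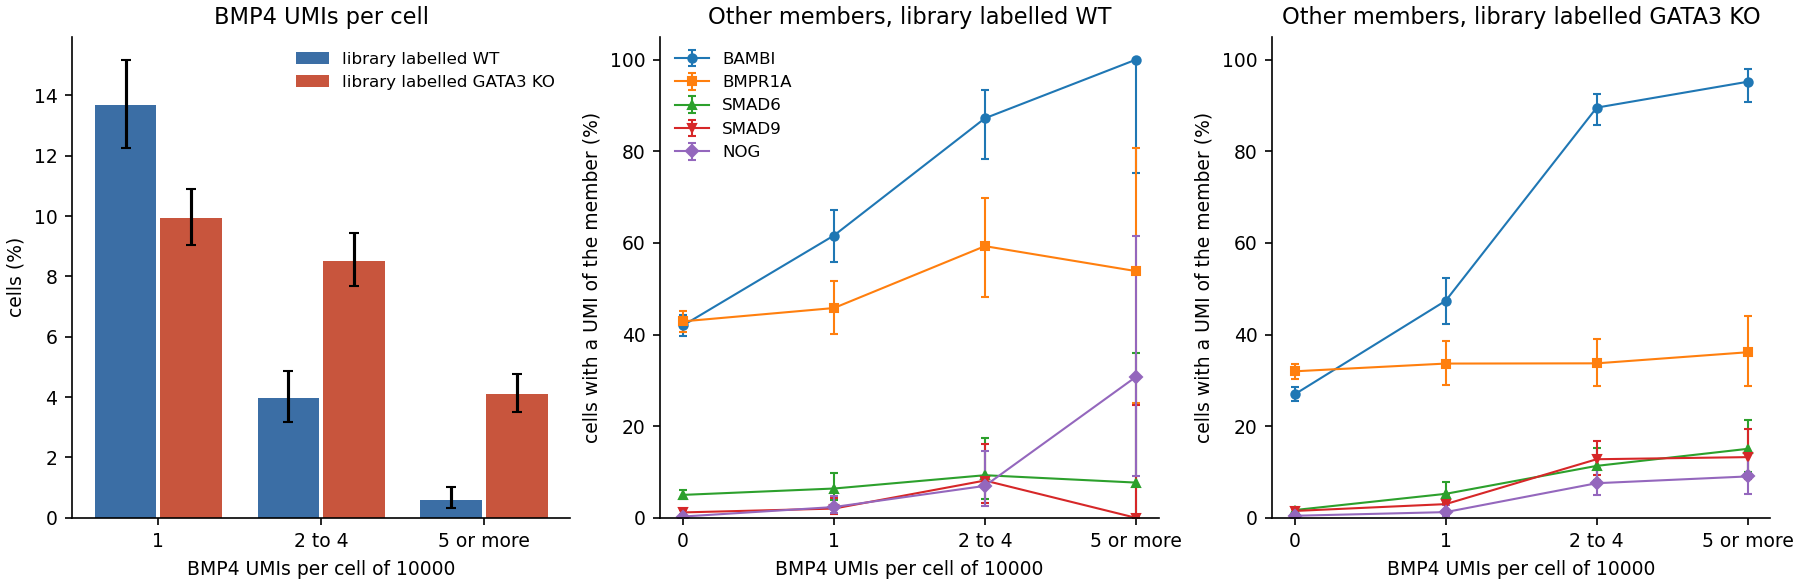
Left, share of thinned cells with 1, 2 to 4, or 5 or more BMP4 UMIs per 10000 in each library; middle and right, share of cells with a UMI of BAMBI, BMPR1A, SMAD6, SMAD9 or NOG by the number of BMP4 UMIs, with exact 95% intervals. Cells with 5 or more BMP4 UMIs made up 0.598% of WT and 4.11% of GATA3 KO, and BAMBI went from 42% to all cells in WT and from 27% to 95.2% in GATA3 KO.

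Correlations across cells within a library, over 8917 genes found in at least 5% of cells of both, put CLDN10, a claudin of tight junctions, closest to BMP4 (Pearson r of log counts 0.50 across 2173 WT cells and 0.73 across 4038 GATA3 KO cells). HPGD, which breaks down prostaglandins, followed with 0.46 and 0.72, then HAPLN1, a matrix link protein, with 0.44 and 0.55. HPGD was also closest to BAMBI, with 0.55 and 0.61, before the transcript PCAT14 and the neuropeptide gene NTS. For SMAD7 the closest gene reached 0.10 and 0.11, too weak at these counts to name a likeness. Cells of a library share its depth and handling, and the values are descriptions.

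Other genes of the pathway gave no common direction. Of 67 further ligands, receptors, SMADs, antagonists, regulators of turnover and targets, 45 had at least 1 CPM, of which 25 were higher and 20 lower in GATA3 KO, with a median log2 ratio of 0.050, and 6 were higher and 3 lower by 2-fold or more, where 2.06% and 2.27% of all genes were. Over all deposited cells 20 of the 45 were higher and 25 lower, with a median of -0.079. Of the 14 other ligands only GDF3, a nodal-like ligand of pluripotent cells, had at least 1 CPM, at 25 CPM in WT and 11.7 CPM in GATA3 KO (-1.03). The co-receptors RGMA and RGMB were opposite, at 4.34 against 11.0 CPM (1.17) and at 14.6 against 5.81 CPM (-1.20), and NEO1, the highest of that list, stood at 16.7 and 15.9 CPM. The receptor ACVR2B stood at 87.1 and 107.1 CPM, SMAD5 at 53.3 and 43.4 CPM, the transcriptional repressor SKIL at 149.2 and 98.1 CPM and the antagonist-like FSTL1 at 97.0 and 111.8 CPM. CER1, a secreted antagonist of nodal and BMP made in the anterior streak, stood at 65.3 CPM in WT and 1.06 CPM in GATA3 KO (-5.01), the largest ratio of the 45.

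Of 12 known targets of the signal, GATA3 among them, 8 were higher and 4 lower in GATA3 KO with a median ratio of 0.23, where 55.7% of all genes were higher. Over all deposited cells 6 were higher and 6 lower, with a median of 0.017. ID1, a direct SMAD target that holds back differentiation factors, stood at 465.7 CPM in WT and 1046 CPM in GATA3 KO (1.17), but ID3 stood at 991.4 and 786.9 CPM (-0.33). The 8 genes of at least 20 CPM in the stretch of chromosome 20 that holds ID1 had a median ratio of 0.56. It was 0.09 for 41 genes of the short arm and 0.22 for 103 genes after 33 Mb. The part of that stretch in the ID1 value was not tested. TFAP2A stood at 16.7 and 37.7 CPM (1.13), the transcription factor GATA2 at 2.02 against 7.75 CPM (1.53) and DLX5 at 4.03 and 10.8 CPM (1.22). HAND1 stood at 11.4 and 12.6 CPM in kept cells (0.13) and at a ratio of -0.67 over all deposited cells.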

How the data were processed

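In all, 2 H1 libraries, 1 labelled WT and 1 labelled GATA3 KO, were compared by the deposited labels. The deposited files hold raw UMI counts per gene and cell: the authors made 10x 3′ v3 libraries and counted them with Cell Ranger 3.0.2 on GRCh38, and cells beyond the limits given next are in the files. Cells with over 7500 detected genes or over 25% mitochondrial counts, the limits of the study, were removed here. Kept cells held 99587274 (WT) and 175285931 (GATA3 KO) UMIs. Counts were summed per library and given per 1000000 UMIs with exact Poisson intervals; ratios are log2 of CPM plus 1, with exact binomial intervals, and understate low genes. Shares used cells thinned to 10000 UMIs (346 WT and 412 GATA3 KO cells were too shallow) with Clopper-Pearson intervals. Scrublet called 1 and 2 doublets, none kept, too few for a caller that works, so doublets were not removed in the main values. Marker classes were drawn on thinned cells and levels taken from all their UMIs. Ratio intervals were tested only on simulated sums with Poisson error, the error they assume, which cannot show spread between cells or libraries. Genes named are all 10 members, GATA3, pathway genes of at least 5 CPM and 2-fold or highest of their list, and the 3 most correlated genes; ID3 and HAND1 were added after their values were seen. Members and lists were chosen with earlier results of these data known. Positions came from GENCODE by identifier (33113 of 33538 genes), promoters from RefSeq GRCh38.p14. Python 3.11.15 with scipy 1.17.1 and scanpy 1.11.5 was used, and edgeR for TMM factors only; no expression test was run.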

Additional observations from a re-analysis of the deposited data

How the results depend on the processing

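Each choice below was changed alone. Without any limit on cells, 0 members were higher and 1 (SMAD7) lower by 2-fold or more, with a median log2 ratio of -0.65, and the same values (0, 1 and -0.65) held without the upper limit on genes alone. As a mean of per-cell CPM, 0 were higher and 1 lower. Removing the highest doublet scores gave 1 lower (BMP2, at -1.0), and a pseudocount of 0.1 CPM gave 2 lower (BMP2 and SMAD7). Of all genes, 2.06% were higher and 2.27% lower by 2-fold or more in the main values. These shares were 1.518% and 2.314% without any limit on cells, and 1.503% and 2.328% without the upper gene limit. They were 2.189% and 2.328% in the per-cell mean, and 2.055% and 2.255% without the highest doublet scores. With a pseudocount of 0.1 CPM they rose to 4.023% and 3.993%. NOG changed sign without limits (-0.015), without the upper gene limit (-0.027) and in the per-cell mean (-0.015). The difference in cells with a BMP4 UMI was 0.473 points without thinning, 6.73 with another random seed and 8.07 for at least 2 UMIs. For BAMBI it was -13.9 points at 20000 UMIs, -15.45 without thinning and -5.055 for at least 2 UMIs, and for SMAD7 -7.14, -13.3 and -0.351 points. The log2 ratio of BMP4 between the HAND1/ISL1 class and SOX2-alone cells of GATA3 KO was 4.65 with markers called at 20000 UMIs and 4.31 without cell limits. The cause of these changes was not tested. Apart from NOG, each member kept its sign in all 8 alternatives of the library ratio (BMP4 from 0.68 to 1.22, SMAD7 from -1.19 to -0.94). At like class shares 10 of 10 members had the sign of their plain ratio of the same setting, in the 6 settings run. NOG at like class shares itself went from 0.245 to -0.074 without cell limits. A minimum of 2000 genes repeated the main values there, so it was no separate check. TMM scaling, totals without mitochondrial UMIs and a minimum of 2000 genes left both counts as they were. No paired analysis was possible because each group holds 1 library. Rare members rest on few UMIs (139 for NOG in WT), so shares near 1% resolve differences poorly.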
